A study of Mus musculus with 72 samples.

Results

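The response of the hypothalamus to a 72 h fast was measured in mice that lacked E3, a conserved noncoding element, by RNA-seq of 3 fasted and 3 fed E3 knockouts. These 6 libraries were chosen by their labels and are 6 of the 72 libraries of the series, which covers knockouts of 5 such elements, named E1 to E5, and their wild types. All animals were adult mice of the B6 strain, and the fasted mice had water but no food for 72 h. The fasted E3 knockouts (n = 3) and the fed E3 knockouts (n = 3) were set against each other, and the same contrast in fasted (n = 3) and fed (n = 3) E3 wild types and in fasted (n = 4) and fed (n = 4) E1 knockouts served for comparison. The knockout is shared by both E3 groups, so the contrast shows the effect of the fast in animals without the element, not the effect of its loss. The labels give neither the position of E3 nor the gene it was thought to control, although the deposited tables are named for Fto. They also do not say whether libraries of a group came from separate animals, so the p-values below measure the spread between these libraries. The study tied the elements to hibernation and asked whether their loss changed gene expression.

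The hypothalamus senses the energy state of the body. In a fasted rodent, neurons of the arcuate nucleus that make Npy and Agrp drive feeding, and neurons that make Pomc and Cartpt restrain it. Starvation also activates the pituitary-adrenal axis. The glucocorticoid that it releases crosses into the brain and binds the glucocorticoid receptor, which then enters the nucleus and switches on genes such as Fkbp5, Sgk1 and Tsc22d3, many of them strongly in glia and blood vessels. In cells that burn less glucose, Pdk4 blocks the entry of pyruvate into the mitochondrial cycle and Angptl4 holds back lipoprotein lipase.

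The 6 knockout libraries held between 15474269 and 23619033 counts over 21749 listed genes. The labels name 1 sequencing batch for all E3 libraries. The Y-linked gene Ddx3y stood at 89.8 to 95.7 CPM (counts scaled to a common library total) in all 6, so fasted and fed knockouts did not differ in this sex marker. The labelled tissue was borne out in part: Npy, Agrp, Pomc, Hcrt and Pmch were present in every library, but markers of neighbouring structures varied between libraries of the same group. The summed level of 16 choroid plexus markers was 307, 1330 and 362 CPM in fasted knockouts 1, 2 and 3, against 351, 317 and 1250 CPM in the fed knockouts. The summed level of 15 striatal markers was 1600, 858 and 865 CPM in fasted and 1800, 2070 and 923 CPM in fed knockouts. Fasted knockout 2 and fed knockout 3 therefore stood apart by choroid plexus transcripts, and results are also given without them. Fasted libraries also leaned slightly to short transcripts: the median log2 level of the upper quartile of transcript length minus that of the lower quartile, relative to the mean of the E3 libraries, was -0.13, -0.12 and -0.13 in fasted and 0.10, 0.11 and 0.03 in fed knockouts. In bulk tissue, fewer cells of a type and less RNA per cell cannot be told apart.

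Most of the genes that differed between fasted and fed E3 knockouts were higher in the fasted animals. Genes that glucocorticoids induce stood out among the rises, with Cdkn1a, Arrdc2, Sgk1 and Fkbp5 up 2.34-fold to 5.46-fold. A few genes of motile cilia, astrocytes, ribosomal proteins and fuel use also rose, and Rgs5 and Ptprb, which mark small vessels, fell. By edgeR's quasi-likelihood test with Benjamini-Hochberg adjustment over 14663 genes, 74 genes passed an adjusted p of 0.05, which is 0.505% of those tested. Of these, 72 were higher (0.491%) and 2 were lower (0.0136%) in fasted knockouts. In all 74 the 3 fasted libraries lay wholly on one side of the 3 fed libraries, as they did in 18.8% of all genes tested. The smallest adjusted p was 0.00799, and 1918 genes (13.1%) had an unadjusted p under 0.05, 1269 of them higher and 649 lower. The count of calls rested on single libraries: it was 25 without fasted knockout 1, 4 without fasted knockout 2, 92 without fasted knockout 3, 0 without fed knockout 1, 0 without fed knockout 2 and 9 without fed knockout 3. With both choroid plexus libraries left out, a comparison of 2 against 2, it was also 0, and the 3 fits without a call had 1099, 1227 and 1770 genes at an unadjusted p under 0.05. DESeq2 called 405 genes on all 6 libraries, 332 higher and 73 lower, so the share of falls depended on the test. The 74 genes kept their direction in every one of these fits, with a median absolute log2 change of 0.77 to 0.83. Because none of them overlapped between the groups, a turn of direction was hardly possible, so the kept direction is no check on the calls. Every call named below carries the limit that the count of calls rested on single libraries.

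The largest rise was that of Cdkn1a (ENSMUSG00000023067, chromosome 17, 29090976 to 29100727 in GRCm38), which encodes an inhibitor of cyclin-dependent kinases that arrests the cell cycle. It had 17.2, 34.8 and 24.4 CPM in the fasted and 4.14, 5.15 and 4.55 CPM in the fed knockouts, a 5.46-fold rise (log2 2.45 ± 0.26 SE; edgeR adjusted p = 0.0157). The lowest fasted library was more than 3 times the highest fed library. Arrdc2 (ENSMUSG00000002910, chromosome 8, 70835129 to 70839720), an arrestin-domain protein, had 24.6, 35.4 and 26.0 CPM in fasted and 6.53, 6.63 and 7.20 CPM in fed knockouts (log2 2.07 ± 0.17, adjusted p = 0.00799). Arl4d, a small GTPase of the ARF family, had 15.4, 14.1 and 12.8 CPM against 3.81, 3.48 and 4.55 CPM (log2 1.83 ± 0.17, adjusted p = 0.0132). The fed libraries of these genes were tightly grouped, and most of the spread was among the fasted ones. Angptl4, the inhibitor of lipoprotein lipase, had 5.64, 5.35 and 4.66 CPM in fasted and 1.10, 1.81 and 1.73 CPM in fed knockouts (log2 1.72 ± 0.26, adjusted p = 0.0343).

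**Figure D1:**
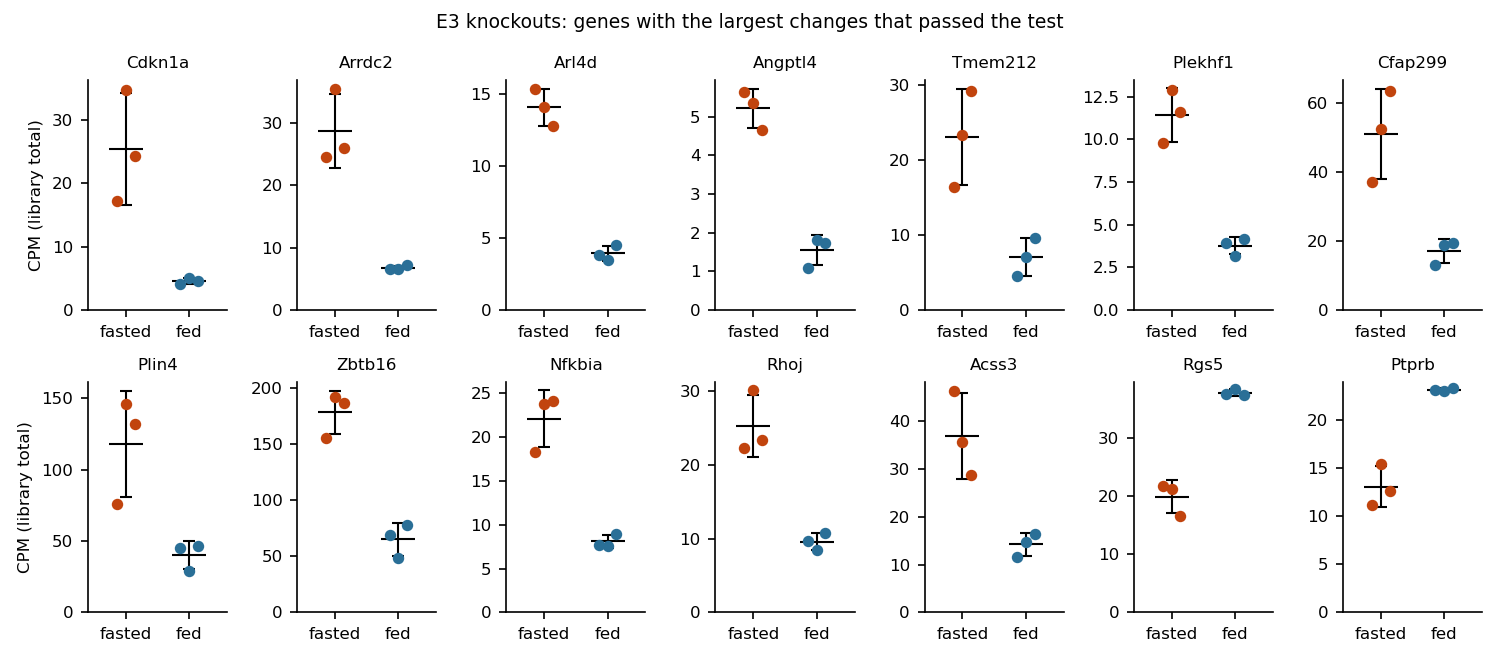
Level in CPM of the library total of the 12 genes with the largest rise and of the 2 genes that fell, in the 3 fasted (left, orange) and 3 fed (right, blue) E3 knockouts; points are libraries, bars the mean and SD. In every panel the groups are apart, as in all 74 called genes, and for Rgs5 and Ptprb the fasted libraries lie below the fed ones.

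Of the remaining large rises, Plekhf1, a phosphoinositide-binding protein of endosomes, had 9.78, 12.9 and 11.6 CPM in fasted against 3.94, 3.20 and 4.17 CPM in fed knockouts (log2 1.59 ± 0.19, adjusted p = 0.0195). Rhoj, a small GTPase best known from endothelial cells, had 22.3, 30.1 and 23.4 CPM in fasted and 9.63, 8.39 and 10.8 CPM in fed knockouts (log2 1.39 ± 0.16, adjusted p = 0.0195). Acss3, a mitochondrial short-chain acyl-CoA synthetase, had 46.3, 35.5 and 28.6 CPM in fasted and 11.6, 14.8 and 16.3 CPM in fed knockouts (log2 1.35 ± 0.20, adjusted p = 0.0343). None of these groups overlapped, which was a condition for naming a gene among the largest changes. The plot of the largest changes shows the same for Plin4, a coat protein of lipid droplets, at 75.9, 146 and 132 CPM in fasted and 45.2, 28.7 and 46.3 CPM in fed knockouts (log2 1.55 ± 0.26, adjusted p = 0.0475). After trends on transcript length were taken out of the libraries, Plin4 did not pass (edgeR adjusted p = 0.0539).

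A list of 25 genes that glucocorticoids induce in brain or other tissues held 24 tested genes. It was chosen with earlier results of these data known, so its counts describe these libraries and are not an independent test. Of these, 15 rose, none fell and 9 did not pass, and 23 of the 24 had a positive estimate; the list's median log2 change was 1.25, against 0.00 over all genes tested. Its summed level was 2030, 2540 and 2060 CPM in fasted and 1160, 1020 and 1260 CPM in fed knockouts, with no overlap. The median was 1.12 without the choroid plexus libraries, 1.22 after GC trends were taken out of the libraries and 1.21 after trends on transcript length were. Sgk1, a kinase that regulates ion transport and is a classic target of the receptor, had 213, 259 and 176 CPM in fasted and 100, 85.4 and 79.9 CPM in fed knockouts (log2 1.28 ± 0.16, adjusted p = 0.0269). Fkbp5, a co-chaperone that lowers the receptor's affinity for its ligand, had 63.2, 82.0 and 74.3 CPM in fasted against 33.2, 28.0 and 31.7 CPM in fed knockouts (log2 1.23 ± 0.12, adjusted p = 0.0144). Ddit4, an inhibitor of the growth kinase mTORC1, had 36.3, 41.5 and 39.0 CPM against 15.3, 14.8 and 17.2 CPM (log2 1.29 ± 0.11, adjusted p = 0.00799). For each of these genes every fasted library exceeded every fed one, as for every gene called higher.

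Several members restrain inflammation or transcription. Nfkbia, which holds NF-kappaB in the cytoplasm, had 18.3, 23.8 and 24.1 CPM in fasted and 7.69, 7.61 and 8.98 CPM in fed knockouts (log2 1.43 ± 0.15, edgeR adjusted p = 0.0157). Tsc22d3, which encodes the glucocorticoid-induced leucine zipper protein, had 149, 153 and 138 CPM in fasted against 75.7, 61.2 and 90.7 CPM in fed knockouts (log2 0.94 ± 0.14, adjusted p = 0.0343). Zbtb16, a zinc-finger repressor, had 156, 192 and 187 CPM against 68.8, 48.6 and 78.0 CPM (log2 1.44 ± 0.17, adjusted p = 0.0195). The fed libraries of Zbtb16 differed more among themselves than those of Nfkbia, yet their highest value was below the lowest fasted one. Hif3a, an inhibitory member of the hypoxia-inducible factor family, rose by 1.27 (log2; adjusted p = 0.0157), Fam107a, an actin-binding stress-response protein, by 0.88 (adjusted p = 0.0319) and Gjb6, the astrocyte gap junction protein connexin 30, by 0.77 (adjusted p = 0.0319). The receptor gene itself, Nr3c1, had 187, 184 and 174 CPM in fasted and 203, 191 and 240 CPM in fed knockouts and did not pass (log2 -0.23, 95% interval -0.47 to 0.01, adjusted p = 0.4).

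**Figure D2:**
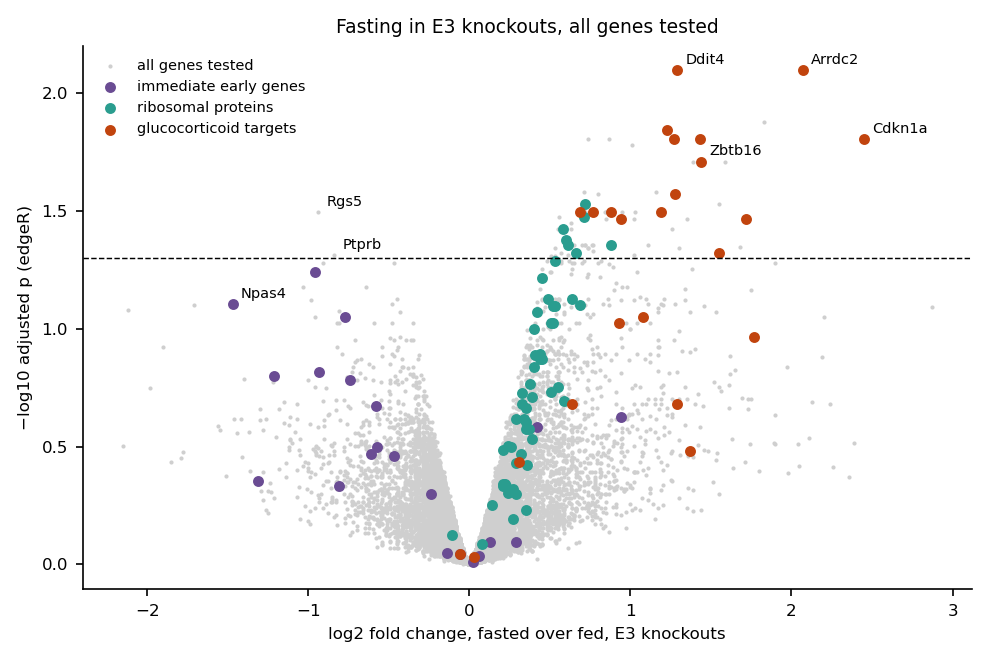
Log2 fold change of fasted over fed E3 knockouts (x) and -log10 of the edgeR adjusted p (y) for the 14663 genes tested, with 3 gene lists in colour; the dashed line marks an adjusted p of 0.05. Of the 24 glucocorticoid targets tested 15 lie above the line, of the 55 ribosomal protein genes 7 and of the 21 immediate early genes 0.

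The glucocorticoid receptor binds DNA as a dimer, to inverted copies of the hexamer AGAACA spaced by 3 bases, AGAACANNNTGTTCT. Promoter windows from RefSeq (GRCm38.p6), 250 bases before to 50 bases after each annotated start, were searched on both strands for the hexamer (AGAACA or TGTTCT) and for the full 15-base palindrome, whose arms are also counted as hexamers. Of the 15 called glucocorticoid targets, 13 had a window, 23 windows in all, and 6 of these (26.1%) held a hexamer. The share was 13.2% for windows of tested genes, 16.4% for those of all called genes and 19% for all 32851 windows. Closely spaced starts of Fam107a gave overlapping windows with the same hexamers, so a match could count more than once. By gene, 3 of 13 (23.1%) held it, against 15.6% of the tested genes with a window and 21.3% of all genes with one. The palindrome was present in 3 of the 32851 windows, and 1 of them belonged to an annotated start of Sgk1, 189 bases upstream of it. The windows that held a hexamer are shown for the 3 genes concerned, 1 window each, with the motif in capitals and the strand of the gene read 5′ to 3′.

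Sgk1, chr10:21993640-21993939, plus strand: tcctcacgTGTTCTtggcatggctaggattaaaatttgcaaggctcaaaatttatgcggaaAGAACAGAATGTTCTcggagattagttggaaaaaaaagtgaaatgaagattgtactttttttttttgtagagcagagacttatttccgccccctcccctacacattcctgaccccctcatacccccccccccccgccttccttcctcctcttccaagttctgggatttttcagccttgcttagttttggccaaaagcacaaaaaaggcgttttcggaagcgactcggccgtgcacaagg

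Tsc22d3, chrX:140600473-140600772, minus strand: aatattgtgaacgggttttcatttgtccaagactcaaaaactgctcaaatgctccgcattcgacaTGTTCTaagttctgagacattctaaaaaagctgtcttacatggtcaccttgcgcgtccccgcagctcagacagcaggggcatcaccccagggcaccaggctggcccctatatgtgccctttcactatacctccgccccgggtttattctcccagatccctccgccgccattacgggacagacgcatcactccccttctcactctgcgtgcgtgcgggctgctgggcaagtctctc

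Fam107a, chr14:8309728-8310027, minus strand: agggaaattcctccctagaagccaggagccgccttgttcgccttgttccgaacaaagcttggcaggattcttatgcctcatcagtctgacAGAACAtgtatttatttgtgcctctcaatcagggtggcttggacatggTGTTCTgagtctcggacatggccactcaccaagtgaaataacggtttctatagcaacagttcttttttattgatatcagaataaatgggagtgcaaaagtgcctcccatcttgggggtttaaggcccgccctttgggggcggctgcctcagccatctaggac

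In the Sgk1 window the run of 15 capitals is the palindrome and the run of 6 capitals a further hexamer. That window is 1 of 6 annotated for Sgk1, of which 3 held a hexamer, and counts per gene do not tell which start was used. The windows of Arrdc2, Cdkn1a, Ddit4, Fkbp5, Gjb6, Hif3a, Klf15, Nfkbia, Pdk4 and Plin4 did not hold these letters. A match is a stretch of letters, not a measured binding site.

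Few fuel genes passed the test. Of 25 genes of fatty acid and ketone use, 3 rose (Angptl4, Pdk4 and Ucp2), none fell and 22 did not pass, with a list median of 0.15. In this list 20 estimates were positive and 5 negative. By edgeR, 8 of its genes had an unadjusted p under 0.05 in the higher and 1 in the lower direction. Pdk4, the kinase that shuts off pyruvate dehydrogenase, had 24.8, 27.2 and 19.2 CPM in fasted and 9.95, 10.2 and 10.8 CPM in fed knockouts (log2 1.19 ± 0.16, edgeR adjusted p = 0.0319). Ucp2, a mitochondrial carrier, had 47.5, 47.3 and 45.9 CPM in fasted and 30, 27.7 and 32.5 CPM in fed knockouts (log2 0.63 ± 0.10, adjusted p = 0.0377). Both genes were separated between the groups, and Ucp2 varied little within them. Angptl4 and Pdk4 also belong to the glucocorticoid list, as does Klf15, a transcription factor of fasting metabolism and the single gene of 24 in the list of FoxO and autophagy genes that rose. Klf15 had 52.4, 50 and 55.6 CPM in fasted and 35.0, 29.8 and 31.9 CPM in fed knockouts (log2 0.69 ± 0.09, adjusted p = 0.0319).

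Genes of glycolysis lay slightly higher without passing. Of 21 tested, 0 passed by edgeR, 12 had an unadjusted p under 0.05 in the higher direction, 4 passed by DESeq2, and the median was 0.29. Aldoc, the brain form of aldolase, had 679, 720 and 646 CPM in fasted and 495, 415 and 512 CPM in fed knockouts (log2 0.51, edgeR adjusted p = 0.0947). The glucose transporter gene Slc2a1 had 25.5, 32.6 and 31.2 CPM against 22.8, 20.4 and 22.3 CPM (log2 0.43, adjusted p = 0.182). The lists for fatty acid synthesis (15 genes, median 0.00) and cholesterol synthesis (23 genes, median -0.02) had 0 calls by edgeR and by DESeq2, with 2 and 0 genes at an unadjusted p under 0.05.

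Ribosomal protein genes lay higher nearly without exception, but few passed. Of 59 listed, 55 were tested, 54 had a positive estimate, 7 rose and 48 did not pass, with a median log2 change of 0.39. The summed level was 6420, 6520 and 6060 CPM in fasted and 4540, 4470 and 5000 CPM in fed knockouts, with no overlap. Rpl11, a protein of the large subunit, had 124, 140 and 133 CPM in fasted and 78.8, 73.7 and 86.4 CPM in fed knockouts (log2 0.72 ± 0.09, edgeR adjusted p = 0.0294). Rps14, of the small subunit, had 56.7, 57.4 and 68.7 CPM against 33.2, 37.7 and 39.9 CPM (log2 0.71 ± 0.10, adjusted p = 0.0337). Rpl18 had 49.8, 50.6 and 49.6 CPM against 30.8, 33.1 and 35.3 CPM (log2 0.58 ± 0.09, adjusted p = 0.0377), Rpl10a rose by 0.60 (adjusted p = 0.0421), and Rpl38 and Rps3 were also called. These genes have many processed pseudogenes, so reads may have been shared or lost in counting. Their transcripts are short, and the fasted libraries held more of short transcripts. Once each library's trend on transcript length was taken out, the list's median was 0.22 and 2 of its genes passed. The part of transcript length was not tested: the trends of this fit were drawn through these genes too, so it cannot separate the 2. With length trends taken out Rpl18 passed (edgeR adjusted p = 0.0469), and Rpl11 (adjusted p = 0.0539), Rps14 (0.106) and Rpl10a (0.083) did not. The 72 genes that rose had a median transcript length of 2327 bases, against 3432 bases for all genes tested.

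Nuclear genes of the respiratory chain behaved alike: 41 of 43 had a positive estimate, 1 rose, and the median was 0.25. Uqcrc1, a core subunit of complex III, had 146, 163 and 171 CPM in fasted and 110, 108 and 115 CPM in fed knockouts (log2 0.51 ± 0.09, edgeR adjusted p = 0.049). With trends on transcript length taken out, the list's median was 0.15 and 0 of its genes passed, Uqcrc1 included (edgeR adjusted p = 0.0747). The 13 mitochondrially encoded genes were listed with 0 counts in all E3 libraries, so the chain's mitochondrial subunits were not measured. Chaperones of the heat shock response (21 genes, median 0.25, 10 at an unadjusted p under 0.05) and genes of endoplasmic reticulum stress (21 genes, median 0.22, 8 at an unadjusted p under 0.05) had 0 calls by edgeR and 3 and 1 by DESeq2. Fkbp4, a co-chaperone of steroid receptors, had 97.8, 102 and 122 CPM in fasted and 76.4, 72.6 and 80.9 CPM in fed knockouts (log2 0.47, adjusted p = 0.081). Genes that ATF4 induces when amino acids run short had 0 calls among 18 (median 0.10, 5 at an unadjusted p under 0.05, 3 by DESeq2).

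None of the feeding peptides passed the edgeR test in E3 knockouts. Of 30 tested peptides and receptors 23 had a positive estimate, with a median of 0.26 and 8 at an unadjusted p under 0.05; DESeq2 called 4. Among these were Npy (DESeq2 adjusted p = 0.0172), Cartpt (0.00192) and Pmch (0.0177), while Agrp, Pomc, Hcrt and Trh did not pass by DESeq2 either. Npy had 25, 27.7 and 20.2 CPM in fasted and 12.9, 17 and 15.4 CPM in fed knockouts (log2 0.67, 95% interval 0.30 to 1.04; edgeR adjusted p = 0.13). Agrp, made by the same neurons, had 5.30, 4.99 and 6.05 CPM against 4.27, 5.10 and 4.92 CPM (log2 0.18, interval -0.23 to 0.59; adjusted p = 0.727). The groups were apart for Npy and overlapped for Agrp. Pomc had 2.73, 3.67 and 5.93 CPM in fasted and 3.36, 5.15 and 2.98 CPM in fed knockouts (log2 0.08, interval -0.65 to 0.82; adjusted p = 0.943). Its estimate turned to -0.26 without fasted knockout 3 and to -0.07 without fed knockout 3. Cartpt had 23.4, 26.1 and 21.2 CPM in fasted and 8.79, 16.1 and 11.4 CPM in fed knockouts (log2 0.94, interval 0.47 to 1.41; adjusted p = 0.109).

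In the lateral hypothalamus, Pmch, which encodes melanin-concentrating hormone, had 46.4, 30.6 and 37.4 CPM in fasted and 19.3, 23.3 and 27.6 CPM in fed knockouts (log2 0.69, edgeR adjusted p = 0.147). Hcrt, the orexin precursor that sustains wakefulness, had 25.7, 17.7 and 25.8 CPM against 13.4, 19.6 and 19.3 CPM (log2 0.39, adjusted p = 0.419). The groups did not overlap for Pmch and did for Hcrt. Among releasing hormones, Trh had 39.2, 17.8 and 38.0 CPM in fasted and 20.4, 31.5 and 20.7 CPM in fed knockouts (log2 0.36, adjusted p = 0.627), and Crh had 3.03, 1.68 and 2.20 CPM against 1.94, 2.13 and 0.974 CPM (log2 0.43, adjusted p = 0.666). Both overlapped. Other hypothalamic hormones and receptors had 0 calls among 18 (4 at an unadjusted p under 0.05 in the higher direction, 2 by DESeq2), and 10 of the 18 estimates were negative. The list's median was -0.20, and it was -0.23 without fed knockout 1 and 0.18 without fed knockout 2. Among them was Th, the rate-limiting enzyme of dopamine synthesis, with 48.1, 29.8 and 30.2 CPM in fasted and 23.4, 9.88 and 12.3 CPM in fed knockouts (log2 1.24, adjusted p = 0.154).

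Immediate early genes, which neurons transcribe within minutes of firing, lay lower in fasted knockouts without passing. Of 21 tested, 15 had a negative estimate and 0 passed by edgeR; 10 had an unadjusted p under 0.05 in the lower and 2 in the higher direction, DESeq2 called 5 lower and 1 higher, and the median was -0.57. Arc, which regulates synaptic receptors, had 16.1, 18.8 and 12.1 CPM in fasted and 31.9, 28.2 and 30.3 CPM in fed knockouts (log2 -0.96 ± 0.17, edgeR adjusted p = 0.0576). Npas4, induced by calcium entry into neurons, had 6.23, 3.77 and 3.26 CPM against 12.5, 14.7 and 8.82 CPM (log2 -1.47 ± 0.29, adjusted p = 0.0786). Fos had 7.62, 6.32 and 6.27 CPM in fasted and 11.2, 12.4 and 10.4 CPM in fed knockouts (log2 -0.77 ± 0.16, adjusted p = 0.0895). The 3 genes were apart between the groups. Striatal markers had estimates of the same sign, with 15 of 15 negative, a median of -0.74 and 0 calls (3 at an unadjusted p under 0.05, 0 by DESeq2), and so did 6 of 7 markers of GABA neurons (median -0.46, 0 calls, 3 at an unadjusted p under 0.05, 0 by DESeq2). With 1 library left out, the median of the immediate early genes lay between -0.64, without fasted knockout 1, and -0.36, without fasted knockout 3. The striatal median lay between -1.29, without fasted knockout 1, and -0.42, without fed knockout 2, and that of GABA neurons between -0.61, without fasted knockout 1, and -0.30, without fed knockout 2. The part of the striatal and GABA neuron markers in the level of the immediate early genes was not tested.

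**Figure D3:**
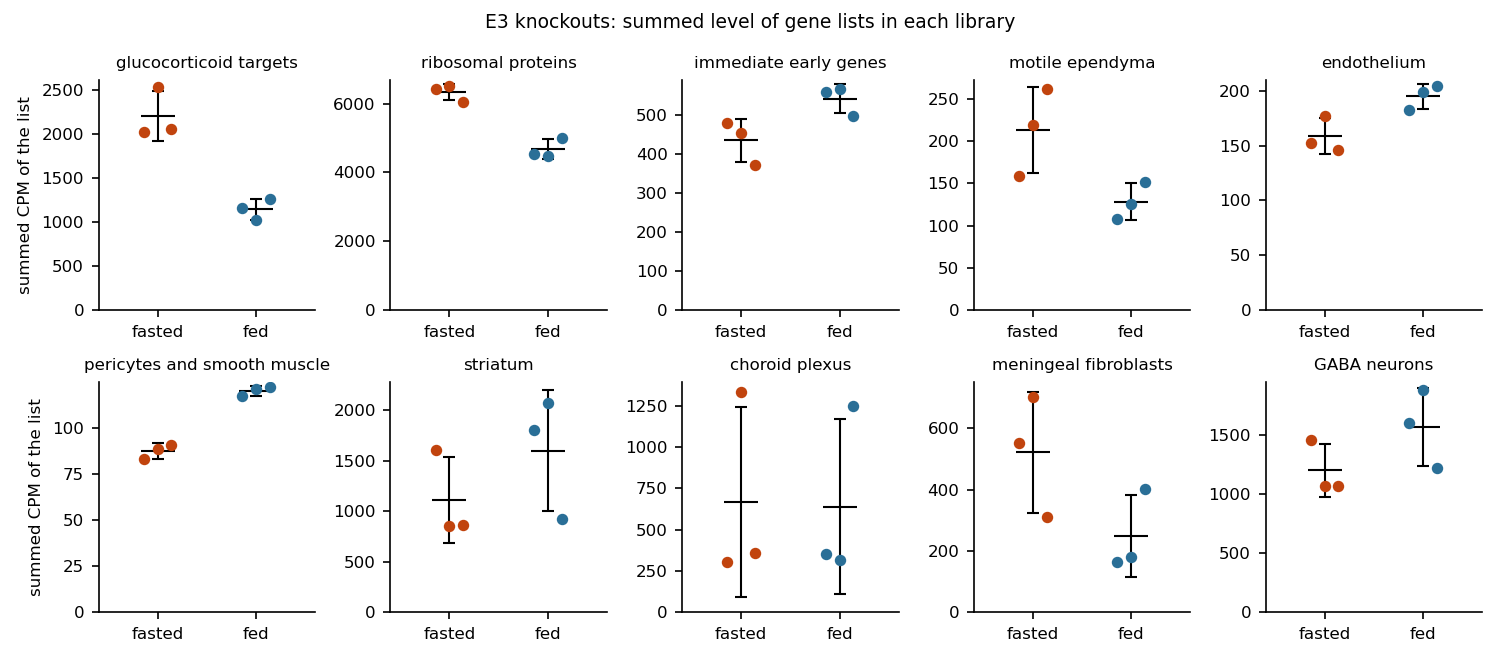
Summed CPM of 10 gene lists in each of the 3 fasted (left, orange) and 3 fed (right, blue) E3 knockouts; points are libraries, bars the mean and SD. Glucocorticoid targets, ribosomal proteins and motile ependyma are higher, and endothelium, pericytes and immediate early genes lower, in every fasted library, while choroid plexus, striatum and meningeal markers overlap.

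Genes of motile cilia, the beating hairs of the ependymal cells that line the ventricles, had positive estimates throughout. Of 13 tested markers, 13 had a positive estimate, 1 rose, 9 had an unadjusted p under 0.05, and the median was 0.59. Tmem212 (ENSMUSG00000043164, chromosome 3, 27866066 to 27896368), a membrane protein found in ciliated cells, had 16.5, 23.4 and 29.3 CPM in fasted and 4.59, 7.10 and 9.58 CPM in fed knockouts (log2 1.68 ± 0.27, edgeR adjusted p = 0.0451). With trends on transcript length taken out, the list's median was 0.66 and 0 of its genes passed, Tmem212 included (edgeR adjusted p = 0.0888). Cfap299 and Dnah12 stand outside the list. Cfap299, a cilium-associated protein, had 37.2, 52.4 and 63.3 CPM in fasted and 13.2, 19.0 and 19.5 CPM in fed knockouts (log2 1.55 ± 0.20, adjusted p = 0.0294). Dnah12, a heavy chain of axonemal dynein, had 31.0, 36.1 and 49.9 CPM against 12.5, 18.8 and 16.6 CPM (log2 1.26 ± 0.19, adjusted p = 0.0377). The groups did not overlap for any of the 3, as for every called gene. The list's summed level averaged 213 ± 51.5 CPM in fasted and 128 ± 22.5 CPM in fed knockouts (SD, n = 3 each), with every fasted library above every fed one. Without the choroid plexus libraries the median of the ependymal list was 0.89. Of the 14 choroid plexus markers tested, 0 passed by edgeR or DESeq2 and 0 had an unadjusted p under 0.05.

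Among glia, 2 of 16 astrocyte markers rose and 14 did not pass (median 0.21). Agt, the angiotensin precursor, had 162, 171 and 210 CPM in fasted and 92.2, 79.2 and 94.4 CPM in fed knockouts (log2 1.01 ± 0.11, edgeR adjusted p = 0.0166), and Gjb6 was the other. Apoe and Sparc stand outside the list and were chosen after their values were seen. Apoe, the main lipid carrier of the brain, had 1000, 1100 and 990 CPM in fasted and 670, 626 and 686 CPM in fed knockouts (log2 0.63 ± 0.09, adjusted p = 0.0356), and Sparc, a matrix protein, had 1010, 901 and 988 CPM against 606, 548 and 594 CPM (log2 0.71 ± 0.09, adjusted p = 0.0264). These levels hardly varied within a group. Markers of mature oligodendrocytes (18 genes, median -0.07), their precursors (14, 0.08), microglia (13, 0.09) and tanycytes (13, 0.29) had 0 calls by edgeR, with 6, 2, 4 and 2 genes at an unadjusted p under 0.05 and 3, 1, 1 and 1 calls by DESeq2. The tanycyte median was 0.11 without fasted knockout 2, and that of mature oligodendrocytes was -0.24 without fed knockout 2 and 0.06 without fed knockout 3.

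The 2 genes that edgeR called lower belong to small vessels. Rgs5 (ENSMUSG00000026678, chromosome 1, 169655501 to 169695813), a regulator of G protein signalling that marks pericytes, had 21.8, 21.2 and 16.6 CPM in fasted and 37.5, 38.5 and 37.4 CPM in fed knockouts (log2 -0.94 ± 0.13, edgeR adjusted p = 0.0319). Ptprb (ENSMUSG00000020154, chromosome 10, 116275523 to 116389535), the endothelial receptor tyrosine phosphatase VE-PTP, had 11.2, 15.4 and 12.6 CPM against 23.1, 23.0 and 23.3 CPM (log2 -0.84 ± 0.14, adjusted p = 0.0488). With trends on transcript length taken out, Rgs5 passed (edgeR adjusted p = 0.0442) and Ptprb did not (edgeR adjusted p = 0.0876). The highest fasted library was well below the lowest fed library for both. Of the 18 endothelial markers tested, Ptprb included, 15 had a negative estimate, 1 fell and 17 did not pass (median -0.31, 5 at an unadjusted p under 0.05 in the lower direction). The endothelial median was -0.47 without fasted knockout 2 and -0.20 without fasted knockout 3. Of the 11 markers of pericytes and smooth muscle, Rgs5 included, 10 had a negative estimate, 1 fell and 10 did not pass (median -0.41, 3 at an unadjusted p under 0.05). The summed endothelial level was at most 177 CPM in the fasted and at least 182 CPM in the fed knockouts. Meningeal fibroblast markers had 0 calls among 13 by edgeR and DESeq2 (2 at an unadjusted p under 0.05) and summed to 552, 703 and 310 CPM in fasted and 163, 179 and 402 CPM in fed knockouts, which overlapped.

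Further genes with a small unadjusted p in the lower direction did not pass by edgeR, while DESeq2 called the 5 given here. Insc, an adaptor of cell polarity, had 12.6, 12.3 and 11.2 CPM in fasted and 24.8, 17.7 and 25 CPM in fed knockouts (log2 -0.91, edgeR adjusted p = 0.0527). Ninj2, an adhesion protein, had 9.89, 9.43 and 9.23 CPM against 23.0, 14 and 20.8 CPM (log2 -1.03, adjusted p = 0.0665). Tgfa, a ligand of the epidermal growth factor receptor, had 31.9, 27.4 and 27.7 CPM in fasted and 50.1, 43.4 and 40.6 CPM in fed knockouts (log2 -0.64, adjusted p = 0.0665). Ncan, a proteoglycan of the perineuronal matrix, and Rsrp1 had log2 changes of -0.45 (adjusted p = 0.0747) and -0.47 (adjusted p = 0.0527). All 5 were apart between the groups.

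At the locus the tables are named for, Fto, a demethylase of RNA, averaged 291 ± 14.4 CPM in fasted and 281 ± 24.0 CPM in fed knockouts (SD, n = 3 each; log2 0.03, 95% interval -0.18 to 0.25; edgeR adjusted p = 0.921). Its neighbour Rpgrip1l, a protein of the primary cilium, had 60.7, 54.4 and 47.6 CPM against 58.5, 71.0 and 54.9 CPM (log2 -0.20, interval -0.50 to 0.11; adjusted p = 0.579). Both overlapped between the groups. The homeobox genes were low: Irx3 had 1.16, 2.09 and 2.29 CPM in fasted and 0.905, 0.928 and 1.08 CPM in fed knockouts (log2 0.92, interval 0.14 to 1.69; adjusted p = 0.305), and Irx5 had 1.86, 5.30 and 7.37 CPM against 1.81, 0.742 and 3.03 CPM (log2 1.38, interval 0.11 to 2.65; adjusted p = 0.341). The list of 10 locus genes had 0 calls by edgeR and DESeq2, with 3 at an unadjusted p under 0.05, and the list of 15 genes that write, erase or read RNA methylation had 0 calls by both and 0 at that level. Neuronal and regional markers had 0 calls by edgeR for glutamate neurons of the hypothalamus (11 genes, median 0.39), pan-neuronal genes (12, 0.13), hypothalamic identity (22, 0.31), cortex and hippocampus (14, -0.15) and thalamus (15, 0.18), with 1, 2, 5, 1 and 1 genes at an unadjusted p under 0.05 and 0, 1, 3, 0 and 1 calls by DESeq2. The cortical and hippocampal median was -0.55 without fasted knockout 2 and 0.05 without fed knockout 3, and the thalamic one was -0.08 without fed knockout 2 and 0.74 without fed knockout 3. These regional medians thus changed sign with the library left out. Of the markers of blood, pituitary, muscle, fat and liver, 11 were tested, none passed by edgeR and 1 had an unadjusted p under 0.05, with summed levels at or below 111 CPM in every knockout library. Lists for the circadian clock (17 genes, median -0.07), interferon response (16, -0.12), cold-inducible genes (9, -0.05) and the thyroid axis (14, -0.03) had 0 calls by edgeR, with 2, 1, 3 and 3 genes at an unadjusted p under 0.05 and 0, 0, 2 and 1 calls by DESeq2.

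Of the genes that changed in E3 knockouts, 12 of the 15 glucocorticoid targets, 6 of the 7 ribosomal protein genes and both vessel genes also changed in E3 wild types. The 3 glucocorticoid targets that did not pass there were Pdk4, Klf15 and Plin4, with log2 changes of 0.60, 0.03 and 0.48 in wild types. The wild types were tested in the same way on separate libraries: 2891 of 14534 genes passed (19.9%), 1666 higher (11.5%) and 1225 lower (8.43%); the count was 1543 without fasted wild type 1, 1791 without fasted wild type 3, 1029 without fed wild type 2 and 902 without fed wild type 3. Of the 74 genes called in knockouts, 45 were called in wild types, all in the same direction, which is 60.8% of the knockout calls and 1.56% of the wild-type calls; 71 of 74 had the same sign. The larger count of calls in wild types came with larger changes over all genes, a median absolute log2 change of 0.148 in knockouts and 0.274 in wild types, at a similar median standard error of 0.144 and 0.149. The genes called higher in wild types had a median log2 change of 0.10 in knockouts and 0.60 in wild types, and those called lower -0.10 and -0.56, which favours the group that chose them. The wild types also differed in composition by GC content: the same measure for the upper against the lower quartile of GC content stood at 0.06, 0.01 and 0.41 in fasted and 0.08, 0.07 and 0.07 in fed knockouts, and at -0.51, -0.08 and -0.40 in fasted and 0.19, 0.04 and 0.08 in fed wild types, on the log2 scale. For transcript length it was -0.10, -0.16 and -0.13 in fasted and 0.05, 0.21 and 0.21 in fed wild types. Length trends were not taken out of the wild types.

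The lists moved by different amounts. Glucocorticoid targets had a median of 1.25 with 15 calls in knockouts and 0.69 with 15 calls in wild types, ribosomal proteins 0.39 with 7 and 0.77 with 48, and motile ependyma 0.59 with 1 and 0.58 with 4. Immediate early genes had -0.57 with 0 calls in knockouts and 0.07 with 4 calls in wild types, 3 of them lower. Npy had a log2 change of 0.67 (edgeR adjusted p = 0.13) in knockouts and 1.5 in wild types, and Pmch 0.69 and 1.67. These side-by-side values are not tests of a difference.

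**Figure D4:**
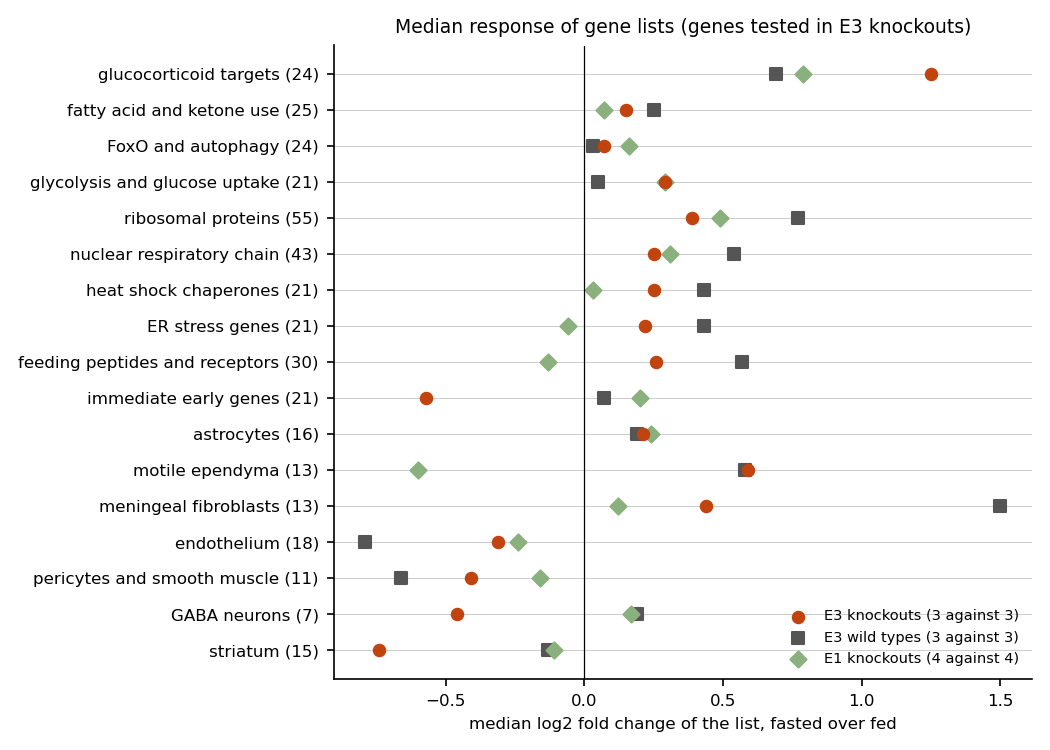
Median log2 fold change of fasted over fed libraries (x) for 17 gene lists, in E3 knockouts, E3 wild types and E1 knockouts; the number of genes tested in E3 knockouts stands in brackets. Glucocorticoid targets are highest in E3 knockouts at 1.25, and motile ependyma is at 0.59 and 0.58 in the E3 groups and at -0.60 in E1 knockouts.

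The difference itself was tested as the interaction of fasting and genotype over all 12 E3 libraries, which share the knockout libraries with the contrast above. By edgeR, 202 of 15033 genes passed (1.34%), 73 with a higher (0.486%) and 129 with a lower (0.858%) response in knockouts. This count was 0 without fasted knockout 2, any of the 3 fed knockouts, fasted wild types 1 or 3, or fed wild types 2 or 3, it was 29 without fasted knockout 3 and 697 without fasted wild type 2, and it was 0 with the GC trend of each library taken out and 0 without the 3 libraries with choroid plexus transcripts; in these fits without a call 2171 to 3213 genes had an unadjusted p under 0.05. DESeq2 called 1098. Of the 24 glucocorticoid targets, 1 passed, Klf15, with a log2 change of 0.69 in knockouts and 0.03 in wild types (interaction 0.69 ± 0.15, adjusted p = 0.0442). The others included Arrdc2, at 2.07 in knockouts and 1.07 in wild types (interaction adjusted p = 0.064). In all, 20 glucocorticoid targets had a positive interaction (median 0.53), 10 of them at an unadjusted p under 0.05. Of the 55 ribosomal protein genes 1 passed, with a lower response in knockouts. Among them 45 had a negative interaction (median -0.34), 25 at an unadjusted p under 0.05. Of the 30 feeding peptides and receptors 1 passed, also with a lower response in knockouts. In that list 19 interactions were negative and 11 positive (median -0.20), and 7 had an unadjusted p under 0.05, all lower. Of the 13 ependymal and 21 immediate early genes, 0 passed, and 1 and 3 had an unadjusted p under 0.05, all lower. Over all genes tested 20.4% had such a p in either direction.

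Of the 6 genes with the smallest p in the interaction, Spsb1, an adaptor of a ubiquitin ligase, was the single gene with a larger response in knockouts. It had 30.5, 34.2 and 30.7 CPM in fasted and 16.5, 14 and 18.7 CPM in fed knockouts, and 16.9, 19.7 and 19.4 CPM in fasted and 21.3, 22.4 and 20.8 CPM in fed wild types (interaction 1.13 ± 0.17, edgeR adjusted p = 0.0357). The neuronal membrane glycoprotein gene Gpm6a had 845, 843 and 767 CPM in fasted and 767, 845 and 845 CPM in fed knockouts, and 1230, 1290 and 1240 CPM in fasted and 695, 673 and 633 CPM in fed wild types (interaction -0.95 ± 0.13, adjusted p = 0.0255). Zfp40, Ropn1l, Spcs3 and Sub1 had the same shape, with fasted wild types apart from the other 3 groups, and Zfp40 had a log2 change of -0.48 in knockouts that did not pass (adjusted p = 0.128). Plekhf1 also passed, with a log2 change of 1.59 in knockouts and 0.26 in wild types (interaction adjusted p = 0.0397). Each of the 6 genes of smallest p passed in 4 of the 12 fits that left out 1 library.

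Fasting in E1 knockouts, mice without another of the elements, gave a second set of separate libraries. By edgeR, 5169 of 14807 genes passed (34.9%), 2714 higher (18.3%) and 2455 lower (16.6%). Of the 74 genes called in E3 knockouts, 48 were called in E1 knockouts, 64.9% of the E3 calls and 0.938% of the E1 calls, and 42 of these changed in the same direction. Glucocorticoid targets rose in both, with 15 of 24 called in E3 and 22 of 23 in E1 knockouts and medians of 1.25 and 0.79. Motile ependyma had opposite signs, with 1 of 13 called higher (median 0.59) in E3 and 10 of 13 called lower (median -0.60) in E1 knockouts. Its summed level, higher in fasted than in fed E3 knockouts as given above, was 104 to 155 CPM in fasted and 193 to 210 CPM in fed E1 knockouts. The element, the sequencing batch and the sex of the animals as seen in Ddx3y, which had 0 CPM in all E1 knockouts, cannot be told apart in this comparison.

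**Figure D5:**
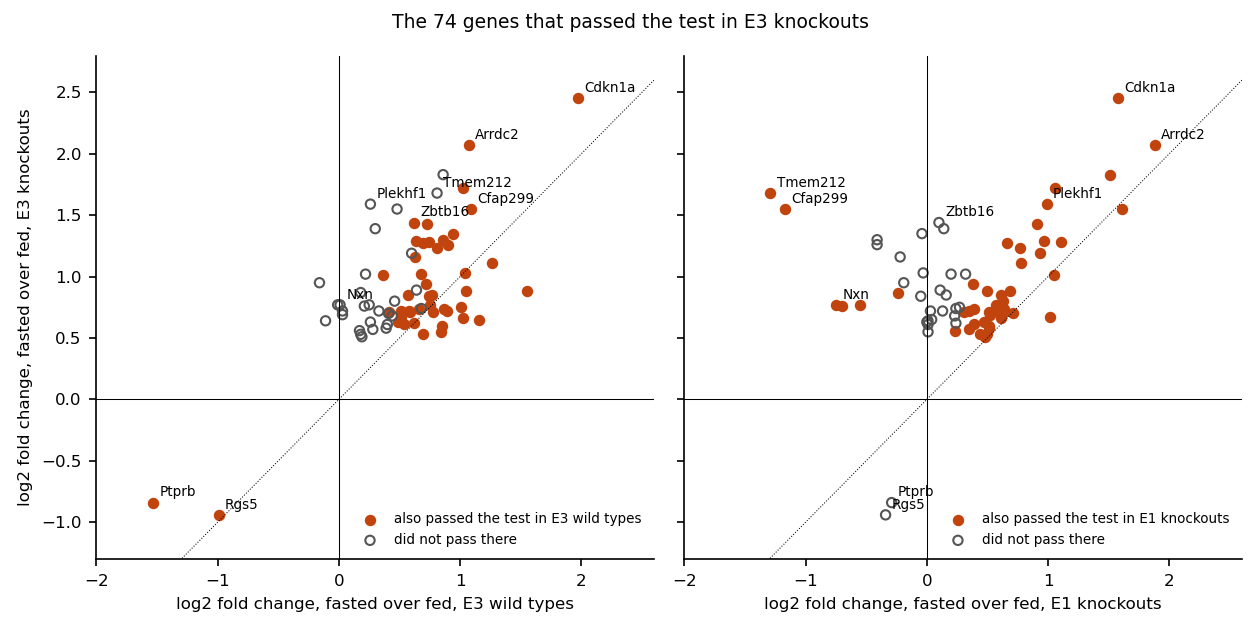
Log2 fold change of fasted over fed for the 74 genes called in E3 knockouts (y), against E3 wild types (left, x) and E1 knockouts (right, x); filled points also passed the test in the other group, the dotted line marks equal change. In wild types 71 of 74 genes lie on the same side of 0, in E1 knockouts 61, with Tmem212 and Cfap299 on opposite sides.

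The difference of the fasting response between E3 and E1 knockouts passed for 1044 of 15246 genes (6.85%), 591 higher (3.88%) and 453 lower (2.97%) in E3; another normalization (RLE) split the calls into 49.9% higher, DESeq2 46.1% and the main scaling 56.6%. It passed for 10 of the 13 ependymal genes, all with a higher response in E3 knockouts (median difference 1.19). Tmem212 differed by 2.96 ± 0.31 (edgeR adjusted p = 0.000277), with log2 changes of 1.68 in E3 and -1.29 in E1 knockouts, and Cfap299 by 2.70 ± 0.25 (adjusted p = 0.000116). Nxn, a nucleoredoxin that restrains Wnt signalling, had 40.7, 41.1 and 52.2 CPM in fasted and 26.0, 26.4 and 25.2 CPM in fed E3 knockouts, against 39.2, 38.7, 42.4 and 39.3 CPM in fasted and 65.1, 64.3, 68.0 and 70.9 CPM in fed E1 knockouts (difference 1.51 ± 0.11, adjusted p = 1.07e-05). Ccnd3, a D-type cyclin, differed by 1.10 ± 0.12 (adjusted p = 0.000277). Dgat2, the last enzyme of triglyceride synthesis, differed the other way by -1.32 ± 0.14 (adjusted p = 0.000277), with changes of -0.46 in E3 and 0.85 in E1 knockouts, and Atxn1l, a partner of the repressor Cic, by -0.93 ± 0.10 (adjusted p = 0.000291). These 6 genes passed in each of the 14 fits that left out 1 library. The count of all calls was 488 without fed E3 knockout 1, 658 and 673 without fasted E1 knockouts 2 and 3, and 635, 644 and 578 without fed E1 knockouts 1, 3 and 4.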

How the data were processed

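Hypothalamus RNA was made into libraries with the Qiagen RNeasy and Ultra II DNA kits, per the labels' protocols. The values are whole-number counts per gene that the authors deposited; HISAT2, Bowtie2, edgeR and the build mm10 are named per the submitters' processing notes. The counter, the strand setting and the tools' versions are not given in the sources used here. Columns of the E3 tables beginning ctrl and 3CR were taken to be fed and fasted libraries from the names of the tables, and the 7 columns of E1 wild types in the E1 tables were not used here. Gene symbols came from GENCODE M21 and matched 99.81% of the 21749 gene IDs.

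Counts were tested with edgeR 4.0.16 (R 4.3.3) by its quasi-likelihood test after TMM scaling and filterByExpr (minimum count 10, minimum total 15), with Benjamini-Hochberg adjustment over all genes tested and a threshold of 0.05. The standard error is the absolute log2 change divided by the square root of F. CPM values are of the library total. The interaction and the difference between knockout lines were contrasts in models of 12 and 14 libraries. The depth ran from 14911351 to 23619033 counts in the E3 libraries, and replicates differed beyond sampling noise. Base composition and transcript length were taken from the transcripts of 99.93% of tested genes.

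The members and all 42 gene lists were chosen with earlier results of these data known. Named were, in each direction, up to 12 called genes of largest change (mean log2 CPM of at least 1, no overlap of groups), filled up to 8 by smallest p as values only, up to 4 called members per pathway list, 8 feeding peptides, 4 locus genes, and the 6 genes of smallest p in the interaction and in the difference. Other genes named were chosen after their values were seen. Alternatives were RLE scaling, no filter, DESeq2 1.42.0, each library left out, a replicate block, 1 model of all 12 E3 libraries, omission of the choroid plexus libraries, and removal of GC trends. The likelihood ratio test and the length trend were added after seeing the data. The edgeR fits of fasting in E3 knockouts and of the interaction were tested on simulated data, as was the removal of a GC trend. The other fits were not. Some results are not reported here.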

Additional observations from a re-analysis of the deposited data

Results flagged for a closer look

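The fasting response differed between E3 knockouts and E3 wild types by the edgeR test of the interaction for the 6 genes of smallest p. Each of the 6 passed in 4 of the 12 fits that left out 1 library, and 0 genes passed the interaction with GC trends taken out. The interaction was -0.95 for Gpm6a (log2 change -0.01 in knockouts, 0.96 in wild types), -0.89 for Spcs3 (-0.10 and 0.82) and -1.13 for Zfp40 (-0.48 and 0.67), each with an adjusted p of 0.0255. It was -1.21 for Ropn1l (0.02 in knockouts and 1.25 in wild types), -0.81 for Sub1 (0.09 and 0.92) and 1.13 for Spsb1 (0.95 and -0.16), each with an adjusted p of 0.0357. In 5 of these 6 genes the wild types passed the test of fasting and the knockouts did not.

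The response also differed between E3 and E1 knockouts for the 6 genes of smallest p in that test. The difference was 2.96 for Tmem212, 2.70 for Cfap299, 1.51 for Nxn and 1.10 for Ccnd3, with log2 changes of 1.68, 1.55, 0.77 and 0.87 in E3 knockouts and -1.29, -1.17, -0.75 and -0.24 in E1 knockouts. It was -1.32 for Dgat2 (-0.46 in E3 and 0.85 in E1 knockouts) and -0.93 for Atxn1l (-0.35 and 0.56). Within a group of 4, a single library of the fasted E1 knockouts lay apart for Nxn, at 42.4 CPM beside 39.2, 38.7 and 39.3 CPM; chance gives such a gap in about 1 in 20 groups.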

How the results depend on the processing

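The 74 calls in E3 knockouts became 115 with no filter on low counts, 62 with RLE scaling, 405 with DESeq2, 396 with the likelihood ratio test, 117 with all 12 E3 libraries in 1 model, 53 with GC trends and 44 with length trends taken out, and 0 without the choroid plexus libraries (edgeR; 1770 genes at an unadjusted p under 0.05). With 1 library left out they ranged from 0 to 92, those in wild types from 902 to 3764, the interaction from 0 to 697 and the difference between lines from 488 to 1330. The interaction calls, 202 in the main model, became 1098 with DESeq2 and 756 with the likelihood ratio test, and 0 without the choroid plexus libraries or with GC trends taken out by edgeR (2310 and 2171 at an unadjusted p under 0.05). DESeq2 called 1630 genes in the difference between lines. The cause of these shifts was not tested.

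Same-numbered fasted and fed libraries did not deviate together (r = 0.17, -0.40 and -0.01 in knockouts, -0.30, -0.22 and 0.05 in wild types). The largest r in knockouts, 0.47, joined fasted knockout 2 and fed knockout 3, the choroid plexus libraries. Such differences in content could hide a pairing, so the check cannot decide whether the numbers pair the libraries. With a replicate block 19 genes passed in knockouts, 14 of them among the 74, 1633 in wild types and 0 in the interaction (edgeR; 2821 at an unadjusted p under 0.05).

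Among named genes, estimates changed sign for Pomc, Fto and Agrp, none of them called. Pomc ranged from -0.26 to 0.36 with 1 library left out, was 0.00 without the choroid plexus libraries and -0.10 with length trends taken out. Fto ranged from -0.03 to 0.09 with 1 library left out. Agrp was -0.06 with length trends taken out. Of the planned repeats for named genes, 514 kept direction and side of the threshold, 217 lost the threshold, 19 gained it and 4 changed sign. With 1 library left out, the list medians that changed sign were those of choroid plexus (-0.68 to 1.22), thalamus (-0.08 to 0.74), cortex and hippocampus (-0.55 to 0.05), other hypothalamic hormones (-0.23 to 0.18), mature oligodendrocytes (-0.24 to 0.06), interferon-stimulated genes (-0.18 to 0.06), pan-neuronal genes (-0.01 to 0.15), cholesterol synthesis (-0.07 to 0.01), fatty acid synthesis (-0.03 to 0.07) and the Fto locus (-0.03 to 0.09). Low genes such as Irx3, Crh and Pomc, at a few CPM, rest on few counts, which limits their precision.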
